A study of Mus musculus with 10 samples.

Results

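Chemokine genes encode small secreted or membrane-bound proteins that attract cells, and their receptors are G protein-coupled proteins on the cells that respond. The set described here holds the CC, CXC and CX3C ligands and receptors, chosen by gene symbol from the deposited count table with 1 representative transcript per gene. It comprised 51 of the 18594 genes of that table, 34 of them ligands and 17 receptors.

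RNA sequencing libraries of mouse intestine were available in 4 groups. The Foxl1 positive group had 3 libraries of sorted mesenchymal cells: 2 came from Foxl1Cre mice with a Rosa-YFP reporter (libraries 1 and 2) and 1 from Foxl1Cre mice with a Rosa-mTmG reporter (library 3). The Foxl1 negative group had 3 libraries of sorted cells, all from Foxl1Cre; Rosa-mTmG mice. The Lgr5 positive group had 2 libraries of sorted GFP positive stem cells from mice whose allele the labels write as Lr5-EGFP-IRES CreERT2, library 1 from a male and library 2 from a female. The Differentiated epithelium group had 2 libraries from wild type C57BL/6J mice. Groups follow the titles; the tissue field names mesenchyme for all 10 libraries, which goes against the titles of the 4 epithelial ones. Strain background was given as mixed for the other 3 groups, no age is given in the sources used here, 3 mice are named for the mesenchymal sorts, and no label ties a library to an animal, so that each p-value reflects only how far libraries differ. In both mesenchymal sorts Cre is driven by Foxl1, a winged helix transcription factor of the subepithelial mesenchyme, so a reporter also marks cells whose Foxl1 gene was active earlier. Lgr5 marks the stem cells at the base of the crypts.

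In the gut, chemokines place immune cells. Ccl25 from small intestinal epithelium draws lymphocytes that carry Ccr9, Ccl20 acts on Ccr6, Ccl28 on Ccr10, Cxcl16 on Cxcr6, and Cx3cl1 on the Cx3cr1 of mononuclear phagocytes. Stromal cells are known sources of Cxcl12, which acts on Cxcr4, of Cxcl13, which acts on Cxcr5, of the Ccr7 ligands Ccl19 and Ccl21a, and of the eotaxin Ccl11.

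Total counts were 4368332 to 11167676 per library in the Foxl1 positive group, 1311205 to 13440838 in the Foxl1 negative group, 46415489 and 99628145 in the Lgr5 positive group and 79516088 and 80910717 in the Differentiated epithelium. Foxl1 itself had 0.155, 31.0 and 11.6 CPM (counts scaled to library size and composition) in Foxl1 positive libraries 1 to 3 and 0 in each Foxl1 negative library, so library 1 was near 0 as well. The Foxl1 negative libraries were sparse: of 306 genes with at least 100 CPM in each of the other 7 libraries, 55.2%, 27.8% and 11.8% had no count in Foxl1 negative libraries 1, 2 and 3. Markers of other cell types were present in the mesenchymal sorts. Epcam, an epithelial surface protein, had 651, 618 and 40.4 CPM in the Foxl1 positive libraries and 305, 921 and 78.5 CPM in the Foxl1 negative libraries, against 1879.6 and 1950.1 CPM in Lgr5 positive cells and 3784 and 3489 CPM in Differentiated epithelium. Summed over 14 fibroblast and telocyte markers, the level was 6657, 3635 and 74053 CPM in the Foxl1 positive libraries, 8082, 12602 and 6499 CPM in the Foxl1 negative libraries, 2.78 and 2.77 CPM in Lgr5 positive cells and 5.74 and 9.2 CPM in Differentiated epithelium. Library 3 of the Foxl1 positive group thus stands apart from the other 2. It differs from them in its reporter allele too, and each of the 3 has its own run code. Make-up, allele and run therefore cannot be told apart.

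At least 1 count was found for 46 of the 51 genes in the Foxl1 positive group, 19 in the Foxl1 negative group, 28 in the Lgr5 positive group and 40 in the Differentiated epithelium. In every library of the group, 27, 1, 22 and 34 genes were counted; Ccl25 was the only gene of the set counted in all 3 Foxl1 negative libraries. A count of 0 over a whole group allows a level of up to 0.113 CPM in Foxl1 positive, 0.0976 CPM in Foxl1 negative, 0.0192 CPM in Lgr5 positive and 0.0389 CPM in Differentiated epithelium libraries (3 counts over the group, counting error only). By group mean, 17 ligands and 12 receptors were highest in Foxl1 positive cells, 2 ligands and 5 receptors in Foxl1 negative cells, 4 ligands in Lgr5 positive cells and 11 ligands in Differentiated epithelium. No receptor had its highest mean in an epithelial group. Counts by highest group were not made over all genes, so neither they nor the numbers of genes found can be read as particular to the set. Over all genes, 14332 to 14817 were counted per Foxl1 positive library and 1992 to 5966 per Foxl1 negative library. Epithelial libraries had 15397 to 16237. In bulk samples, fewer cells of a type and less RNA per cell cannot be told apart.

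**Figure D1:**
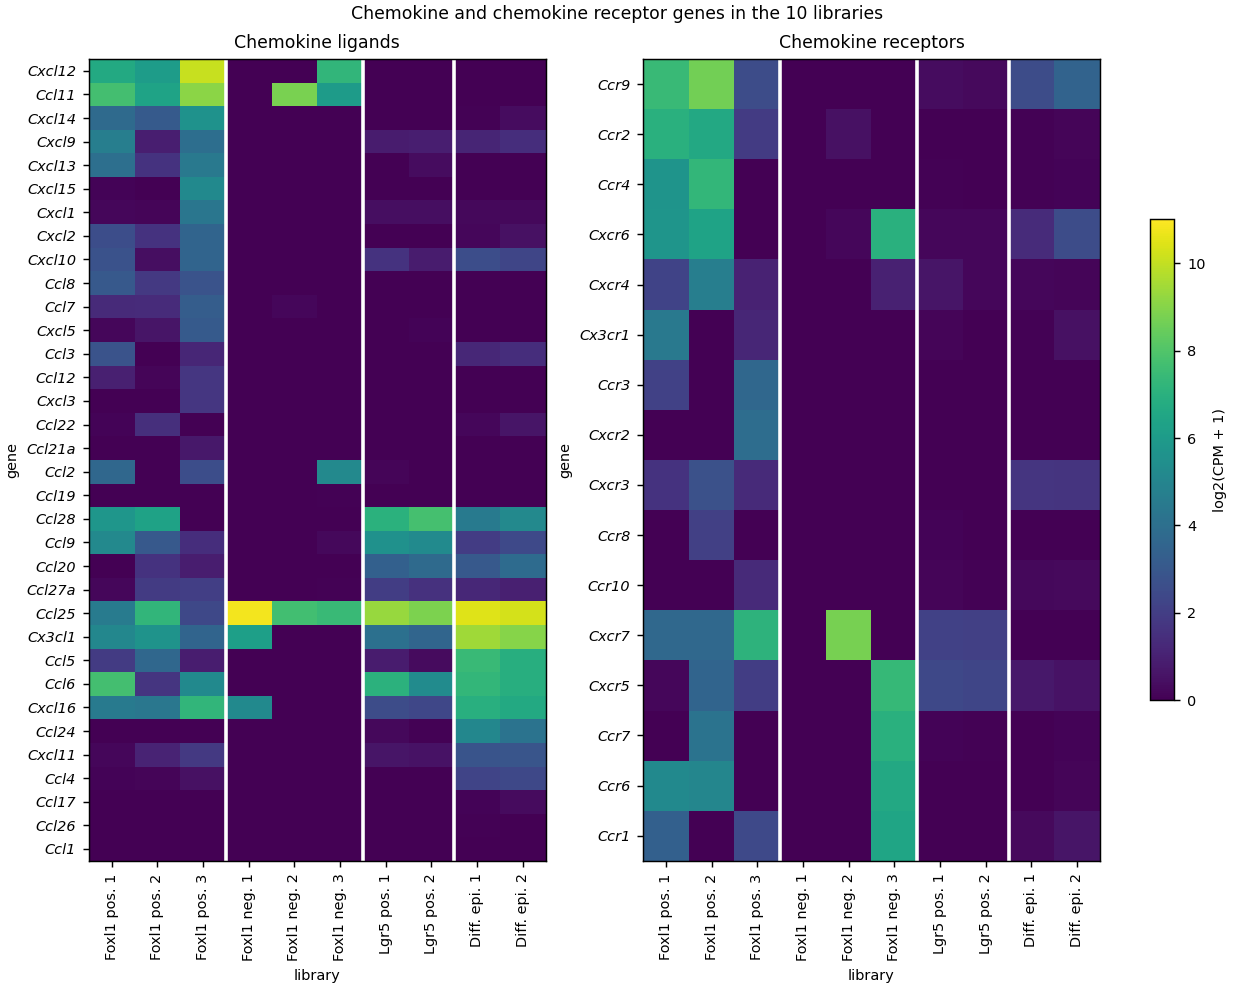
Heat map of 50 of the 51 genes (rows, ligands left and receptors right) in the 10 libraries (columns), coloured by log2(CPM + 1). Foxl1 positive libraries hold counts for most genes, the Foxl1 negative libraries for few, and Ccl25 is present in every library.

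Per length, the ligands ranked differently in each group. In Foxl1 positive cells the highest mean levels were 97.2 ± 103 FPKM for Ccl11 and 90.6 ± 135 FPKM for Cxcl12 (the authors' length-scaled values; SD, n = 3), followed by 17.3 ± 20.9 FPKM for Ccl6 and 15.9 ± 20.9 FPKM for Ccl25. These neighbours do not differ beyond their spread between libraries. In Foxl1 negative cells Ccl25 averaged 192 ± 209 FPKM and Ccl11 49.8 ± 61.3 FPKM (SD, n = 3). In Lgr5 positive cells Ccl25 averaged 304 ± 68.3 FPKM, Ccl6 35.6 ± 27.3 FPKM and Ccl28 27.5 ± 9.83 FPKM (SD, n = 2). In Differentiated epithelium Ccl25 averaged 507 ± 17.0 FPKM, above 112 ± 26.6 FPKM for Ccl5, 76.0 ± 13.1 FPKM for Cx3cl1, 37.8 ± 5.7 FPKM for Ccl6 and 18.2 ± 1.53 FPKM for Cxcl16 (SD, n = 2). Ccl25 had the highest level per length of the set in every library of both epithelial groups. In the mesenchymal sorts the order of the means rests on single libraries. In Foxl1 positive library 3 Cxcl12 had 247 FPKM and Ccl11 215 FPKM, while in library 2 Ccl25, at 40.0 FPKM, lay above Ccl11, at 21.6 FPKM, and Cxcl12, at 9.82 FPKM. In Foxl1 negative library 1 Ccl25 had 432 FPKM, and in library 2 it had 55.1 FPKM, below the 118 FPKM of Ccl11.

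The stromal ligands Cxcl12 and Ccl11 separated the Foxl1 positive from the epithelial libraries. Cxcl12, which holds Cxcr4-bearing cells in tissue, had 101, 66.1 and 1089 CPM in Foxl1 positive libraries 1 to 3, 0, 0 and 152 CPM in Foxl1 negative libraries 1 to 3, and no count in any Lgr5 positive or Differentiated epithelium library. Ccl11, an eosinophil attractant acting on Ccr3, had 209.6, 83.1 and 542 CPM in Foxl1 positive libraries, 0, 444 and 63.7 CPM in Foxl1 negative libraries, and no count in the 4 epithelial libraries. For both genes the Foxl1 positive libraries lay above every epithelial library and overlapped the Foxl1 negative libraries. Cxcl12 was at least 21782-fold higher in Foxl1 positive than in Lgr5 positive cells (adjusted p = 0.0327, edgeR quasi-likelihood test) and at least 10762-fold higher than in Differentiated epithelium (adjusted p = 0.0225). Such bounds, here and below, set the group mean against 3 counts over the empty group. They leave out the spread between libraries, so a single library can lie below them. Ccl11 was at least 14482-fold higher than in Lgr5 positive cells (adjusted p = 0.0167) and at least 7155-fold higher than in Differentiated epithelium (adjusted p = 0.0148). Against Foxl1 negative cells the log2 fold changes were 3.42 ± 3.15 for Cxcl12 (SE, adjusted p = 0.550) and 1.42 ± 2.34 for Ccl11 (SE, adjusted p = 0.797), neither past the threshold of 0.05.

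Cxcl14, a homeostatic chemokine of stroma and epithelium, had 12.9, 7.63 and 47.8 CPM in Foxl1 positive libraries, no count in Foxl1 negative or Lgr5 positive libraries, and 0.0547 and 0.271 CPM in Differentiated epithelium. It was called higher in all 3 comparisons of the Foxl1 positive group: at least 233-fold over Foxl1 negative cells (adjusted p = 0.0116), at least 1186-fold over Lgr5 positive cells (adjusted p = 0.0329), and by 7.22 ± 1.56 on the log2 scale over Differentiated epithelium (SE, adjusted p = 0.0306). Cxcl13, the B cell attractant of lymphoid follicles, had 15.0, 2.02 and 20.6 CPM in Foxl1 positive libraries, 0 in each Foxl1 negative library, 0 and 0.301 CPM in Lgr5 positive libraries and 0.0273 and 0 CPM in Differentiated epithelium. It rose at least 128-fold over Foxl1 negative cells (adjusted p = 0.0116) and 897-fold over Differentiated epithelium, where 1 read was counted (exact 95% counting interval 159.9 to 35558, adjusted p = 0.0308), and did not pass the test against Lgr5 positive cells (adjusted p = 0.136). Ccl8, a monocyte attractant, had 7.37, 2.58 and 6.1 CPM in Foxl1 positive libraries, and a single read, in Differentiated epithelium library 1, outside them. Ccl7, a Ccr2 ligand, had 1.47, 1.57 and 8.42 CPM there and 1 read outside, in Foxl1 negative library 2. Both passed the test against Foxl1 negative cells (adjusted p = 0.0116 for Ccl8 and 0.0119 for Ccl7) and against Differentiated epithelium (adjusted p = 0.0363 and 0.0446). Of these genes, Cxcl12, Ccl11, Cxcl14, Cxcl13 and Ccl7 were all highest in Foxl1 positive library 3, the library with the highest fibroblast and telocyte marker sum. The part of that library's make-up in these levels was not tested.

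**Figure D2:**
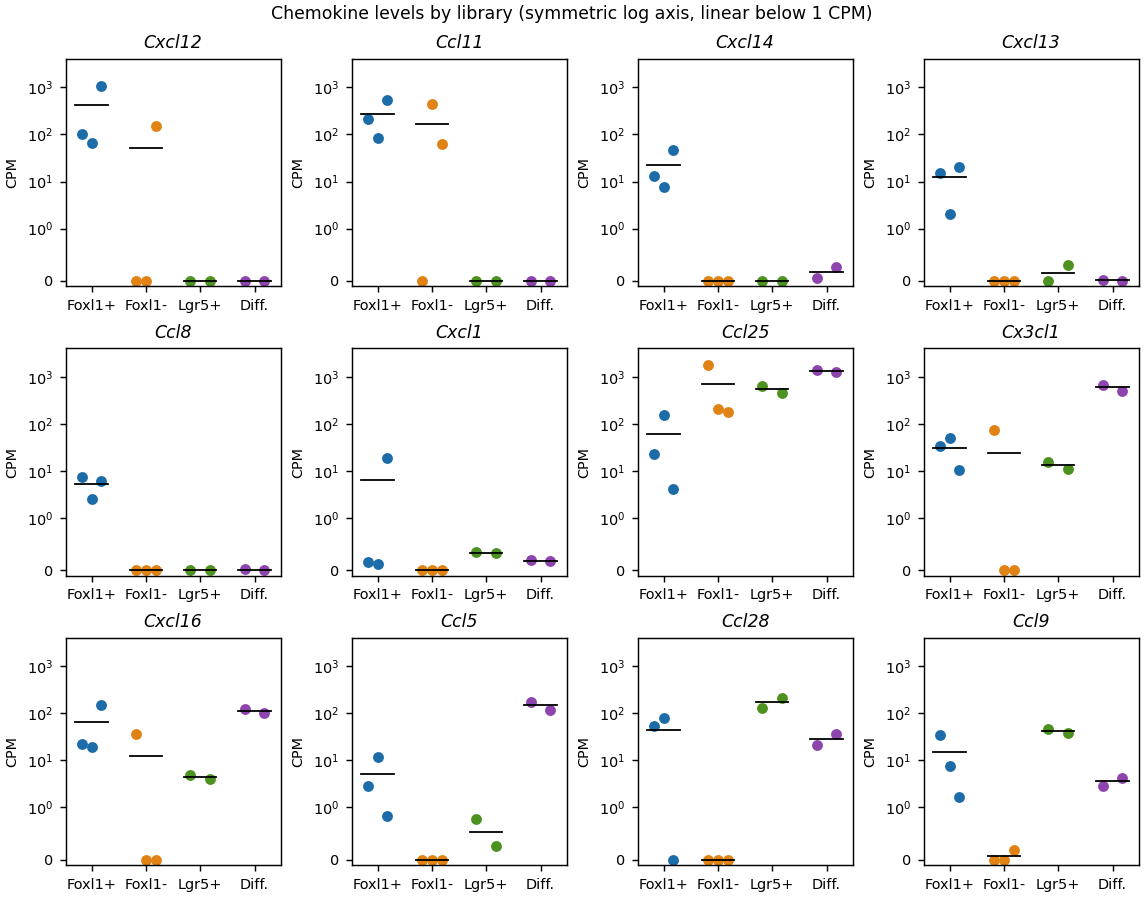
CPM of 12 chemokines (vertical axis, symmetric log scale, linear below 1 CPM) in Foxl1 positive (Foxl1+), Foxl1 negative (Foxl1-), Lgr5 positive (Lgr5+) and Differentiated epithelium (Diff.) libraries; points are libraries and lines are group means. Cxcl12 and Ccl11 are at 0 in the epithelial libraries, and Ccl25, Cx3cl1 and Ccl5 are highest by mean in Differentiated epithelium.

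The neutrophil-attracting CXC ligands lie together on chromosome 5. Cxcl5, Cxcl3, Cxcl15, Cxcl1 and Cxcl2 fill 147 kb at chr5:91188325-91334964 (mm9), and each of the 5 was highest in Foxl1 positive library 3. Cxcl1, a Cxcr2 ligand, had 0.155, 0.112 and 19.1 CPM in Foxl1 positive libraries, 0 in Foxl1 negative libraries, 0.343 and 0.338 CPM in Lgr5 positive libraries and 0.191 and 0.173 CPM in Differentiated epithelium. Cxcl15 had 0.0775, 0 and 36.6 CPM in Foxl1 positive libraries and no count elsewhere. Cxcl5 had 0.155, 0.561 and 7.57 CPM, and Cxcl3 had 0, 0 and 2.31 CPM, in those 3 libraries, with at most 0.0751 CPM in any other library. Within the Foxl1 positive group the level of these 4 genes came almost wholly from library 3, and the filter on low counts kept them out of the tests of that group. Cxcl2 was counted in all Foxl1 positive libraries, at 5.04, 2.02 and 10.7 CPM, against 0 in each Foxl1 negative library, 0 in each Lgr5 positive library and 0.137 and 0.419 CPM in Differentiated epithelium. It rose at least 60.7-fold over Foxl1 negative cells (adjusted p = 0.0116) and did not pass the test against Lgr5 positive cells (adjusted p = 0.0575) or Differentiated epithelium (adjusted p = 0.0821). Their receptor Cxcr2, found on neutrophils, had 0, 0 and 14.1 CPM in Foxl1 positive libraries and no count in the other 7 libraries. The summed level of 5 neutrophil markers in the Foxl1 positive libraries was 15.1, 0.224 and 26.3 CPM, with S100a8 at 0, 0 and 0.421 CPM, and its part in the result was not tested.

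Of the 5 neighbours highest in the same library, Cxcl5 and Cxcl15 were left out here. The windows of 250 bases before the start sites of Cxcl1, Cxcl2 and Cxcl3 are shown. They come from RefSeq (build GRCm38.p6, whose coordinates differ from the mm9 coordinates of the counts), which held a window for 36 of the 51 genes. Capitals mark the longest run that all 3 windows share on the strand of the gene.
Cxcl1 promoter, chr5:90890995-90891244, plus strand: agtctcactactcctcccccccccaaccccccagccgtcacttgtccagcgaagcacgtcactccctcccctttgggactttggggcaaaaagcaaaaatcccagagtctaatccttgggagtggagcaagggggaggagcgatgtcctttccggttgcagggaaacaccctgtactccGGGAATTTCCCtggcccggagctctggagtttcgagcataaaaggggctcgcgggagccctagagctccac
Cxcl2 promoter, chr5:90903649-90903898, plus strand: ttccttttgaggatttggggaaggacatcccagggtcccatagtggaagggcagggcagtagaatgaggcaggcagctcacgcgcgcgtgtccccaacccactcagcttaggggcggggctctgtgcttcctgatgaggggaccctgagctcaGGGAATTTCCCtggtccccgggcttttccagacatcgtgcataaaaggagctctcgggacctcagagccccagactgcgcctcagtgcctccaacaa
Cxcl3 promoter, chr5:90785851-90786100, plus strand: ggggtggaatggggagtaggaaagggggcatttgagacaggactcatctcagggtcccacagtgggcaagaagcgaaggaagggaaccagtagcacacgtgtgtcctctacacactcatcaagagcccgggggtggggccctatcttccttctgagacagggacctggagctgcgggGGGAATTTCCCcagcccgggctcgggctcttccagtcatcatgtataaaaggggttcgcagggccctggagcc
The shared run, GGGAATTTCCC, has 11 bases and begins 71 bases before the start of Cxcl1, 97 bases before that of Cxcl2 and 73 bases before that of Cxcl3. It has the form of a binding site of NF-kB, the transcription factor of inflammatory signals. On either strand it was found in the windows of 0.0518% of 27025 genes, and in the set only in these 3 of the 36 genes with a window. The run was taken from these 3 windows, so its presence there is a description, and no factor's binding was measured.

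Elsewhere on chromosome 5, the interferon-induced Cxcl9, Cxcl10 and Cxcl11, all ligands of Cxcr3, lie within 42.0 kb and were not highest in the same group. Cxcl9 had 24.7, 0.898 and 14.5 CPM in Foxl1 positive libraries, 0.786 and 0.883 CPM in Lgr5 positive libraries and 1.18 and 1.7 CPM in Differentiated epithelium. Cxcl10 had 5.82, 0.337 and 10.5 CPM in Foxl1 positive libraries, 2.1 and 0.789 CPM in Lgr5 positive libraries and 5.0 and 3.94 CPM in Differentiated epithelium. For both, Foxl1 positive library 2 was the lowest of its group. Cxcl11 was highest in Differentiated epithelium, at 6.15 and 6.38 CPM, against 0.155, 1.12 and 2.52 CPM in Foxl1 positive libraries and 0.544 and 0.441 CPM in Lgr5 positive libraries. None of the 3 had a count in Foxl1 negative cells, and none passed a test between Foxl1 positive and epithelial groups. Cxcr3, carried by effector T cells, had 2.09, 5.61 and 1.47 CPM in Foxl1 positive libraries, 0 in every Foxl1 negative and Lgr5 positive library, and 2.27 and 2.14 CPM in Differentiated epithelium. It rose at least 31.3-fold in Foxl1 positive over Foxl1 negative cells (adjusted p = 0.0116).

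The CC ligands of chromosome 11 fall into 2 neighbouring clusters with different distributions. The cluster from Ccl2 to Ccl1 spans 144 kb at chr11:81849079-81993314 (mm9), and 4 of its 6 genes, Ccl7, Ccl11, Ccl12 and Ccl8, had their highest mean in Foxl1 positive cells. Ccl2, the main Ccr2 ligand, had 11.9, 0 and 5.05 CPM in Foxl1 positive libraries, 0, 0 and 35.2 CPM in Foxl1 negative libraries and at most 0.101 CPM in the epithelial libraries; it passed no test. The cluster from Ccl5 to Ccl4 spans 139 kb at chr11:83339281-83478185. Of its 5 genes, 3 had their highest mean in Differentiated epithelium, Ccl9 in Lgr5 positive cells and Ccl3 in Foxl1 positive cells. Ccl5, a chemokine made by T cells, had 2.79, 11.8 and 0.842 CPM in Foxl1 positive libraries, 0 in Foxl1 negative libraries, 0.786 and 0.263 CPM in Lgr5 positive libraries and 177 and 119.5 CPM in Differentiated epithelium. Ccl6, a mouse chemokine of the Ccr1 ligand group, ranged widely: 208, 2.24 and 36.2 CPM in Foxl1 positive libraries, 0 in Foxl1 negative libraries, 133 and 38.9 CPM in Lgr5 positive libraries and 153 and 118 CPM in Differentiated epithelium. Its neighbour Ccl9 had 35.2, 7.52 and 1.68 CPM in Foxl1 positive libraries, 0, 0 and 0.186 CPM in Foxl1 negative libraries, 45.8 and 37.8 CPM in Lgr5 positive libraries and 2.9 and 4.31 CPM in Differentiated epithelium. Against Foxl1 negative cells both rose in Foxl1 positive cells, Ccl6 at least 840.5-fold (adjusted p = 0.0313) and Ccl9 by 7.69 ± 1.95 on the log2 scale (SE, adjusted p = 0.0147).

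**Figure D3:**
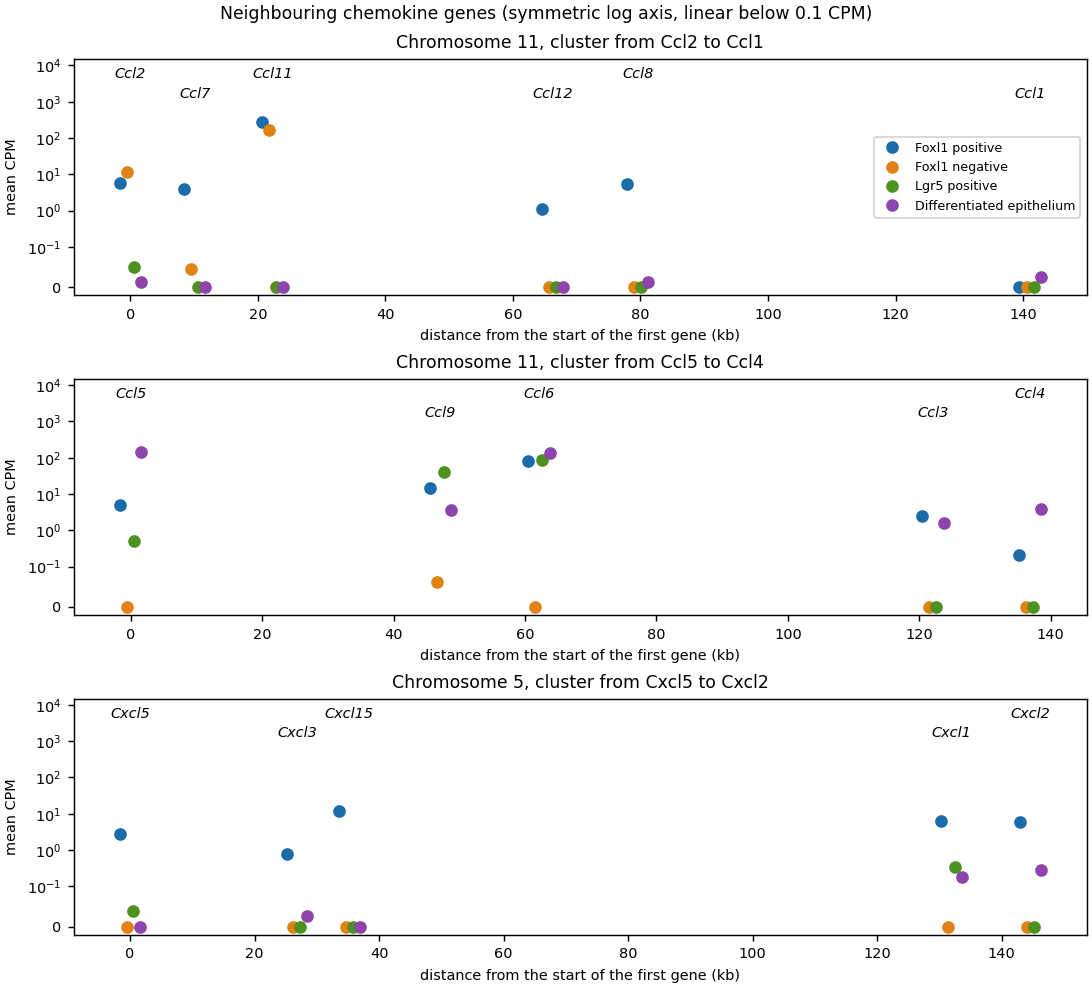
Mean CPM of each group (vertical axis, symmetric log scale, linear below 0.1 CPM) for genes of 2 chromosome 11 clusters and 1 chromosome 5 cluster, placed by distance in kb from the start of the first gene; points of the groups are set slightly apart sideways. Foxl1 positive means lead for most genes of the Ccl2 to Ccl1 and Cxcl5 to Cxcl2 clusters, and epithelial means lead for Ccl5, Ccl9, Ccl6 and Ccl4.

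Epithelial chemokines were led by Ccl25, the ligand of the gut-homing receptor Ccr9. It had 23.1, 152 and 4.21 CPM in Foxl1 positive libraries, 1776, 204 and 177 CPM in Foxl1 negative libraries, 627 and 451 CPM in Lgr5 positive libraries and 1402 and 1270 CPM in Differentiated epithelium. All Foxl1 positive libraries lay below the libraries of the other 3 groups. The log2 fold change of Foxl1 positive cells was -2.81 ± 2.03 against Foxl1 negative cells (SE, adjusted p = 0.399), -2.92 ± 1.33 against Lgr5 positive cells (SE, adjusted p = 0.218) and -4.24 ± 1.42 against Differentiated epithelium (SE, adjusted p = 0.0788), none past the threshold. The sum of 10 enterocyte markers was 2309, 7773 and 82.5 CPM in Foxl1 positive libraries, 19733, 11609.8 and 1874 CPM in Foxl1 negative libraries, 1248 and 1671 CPM in Lgr5 positive libraries and 199624 and 163665 CPM in Differentiated epithelium. Within the Foxl1 positive and the Foxl1 negative group, the libraries ranked the same way for Ccl25 and for the enterocyte sum. Between groups they did not: the Lgr5 positive libraries had lower enterocyte sums than Foxl1 positive libraries 1 and 2 and higher Ccl25. Over 11 pan-epithelial markers the sum was 3122, 3232 and 196 CPM in Foxl1 positive libraries. It was 595, 9727 and 869.5 CPM in Foxl1 negative libraries and 8242 and 6535 CPM in Lgr5 positive libraries. Differentiated epithelium had 33347 and 29642 CPM. The part of epithelial RNA in Ccl25 was not tested.

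Cx3cl1, a membrane-anchored chemokine, had 33.6, 49.0 and 10.5 CPM in Foxl1 positive libraries, 72.6, 0 and 0 CPM in Foxl1 negative libraries, 15.8 and 11 CPM in Lgr5 positive libraries and 683 and 509 CPM in Differentiated epithelium. It was lower in Foxl1 positive cells than in Differentiated epithelium, with a log2 fold change of -4.03 ± 0.85 (SE, adjusted p = 0.0291). Cxcl16, membrane-anchored too, had 22.5, 19.3 and 152 CPM in Foxl1 positive libraries, 36.3, 0 and 0 CPM in Foxl1 negative libraries, 4.94 and 4.08 CPM in Lgr5 positive libraries and 121 and 102 CPM in Differentiated epithelium. Foxl1 positive library 3 lay above both Differentiated epithelium libraries and the other 2 lay below, and the group passed no test. Ccl24, an eotaxin, was counted only in epithelial libraries, with 0.161 and 0.047 CPM in Lgr5 positive and 33.6 and 17.2 CPM in Differentiated epithelium. It was at least 225-fold lower in Foxl1 positive cells than in Differentiated epithelium (adjusted p = 0.0245), and Ccl5 had a log2 fold change of -4.60 ± 1.13 in the same comparison (SE, adjusted p = 0.0398). Ccl28, a mucosal chemokine, had 53.7, 80.9 and 0 CPM in Foxl1 positive libraries, 0 in Foxl1 negative libraries, 129 and 215 CPM in Lgr5 positive libraries and 21.5 and 35.5 CPM in Differentiated epithelium. Ccl20, which attracts Ccr6-bearing lymphocytes, had 0, 2.02 and 0.842 CPM in Foxl1 positive libraries, 0 in Foxl1 negative libraries, 9.51 and 13.1 CPM in Lgr5 positive libraries and 7.49 and 13.4 CPM in Differentiated epithelium; its epithelial groups overlapped.

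The receptors showed a different division within the Foxl1 positive group. Ccr9 had 173, 407 and 4.84 CPM in Foxl1 positive libraries, 0 in Foxl1 negative libraries, 0.282 and 0.216 CPM in Lgr5 positive libraries and 4.92 and 10.2 CPM in Differentiated epithelium. Ccr4, a receptor of T cells, had 50.8, 154 and 0 CPM in Foxl1 positive libraries, no count in Foxl1 negative libraries and at most 0.074 CPM in the epithelial libraries. Ccr2, the monocyte and lymphocyte receptor of Ccl2 and Ccl7, had 127, 98.8 and 2.74 CPM in Foxl1 positive libraries, 0, 0.399 and 0 CPM in Foxl1 negative libraries, 0 in Lgr5 positive libraries and 0.0547 and 0.123 CPM in Differentiated epithelium. Libraries 1 and 2 of the Foxl1 positive group were thus high for these 3 receptors and library 3 was low, whereas library 3 was the highest for Cxcl12. Ccr2 was called higher in Foxl1 positive cells in all 3 comparisons: 978-fold over Foxl1 negative cells, where 3 reads were counted (exact 95% counting interval 334 to 4748, adjusted p = 0.0370), at least 3972-fold over Lgr5 positive cells (adjusted p = 0.0452) and by 9.90 ± 2.11 on the log2 scale over Differentiated epithelium (SE, adjusted p = 0.0296). Each of these Ccr2 calls was lost when Foxl1 positive library 1 or 2 was left out. By its mean, Ccr9 rose at least 1995-fold over Foxl1 negative cells (adjusted p = 0.0261, edgeR). That mean rests on libraries 1 and 2, with library 3 at 4.84 CPM, and the Foxl1 negative libraries were sparse. Its other comparisons did not pass (adjusted p = 0.0530 against Lgr5 positive cells and 0.0921 against Differentiated epithelium).

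Further lymphocyte receptors were counted in mesenchymal sorts of both kinds. Cxcr6 had 52.6, 81.8 and 0 CPM in Foxl1 positive libraries, 0, 0.133 and 126 CPM in Foxl1 negative libraries, 0.141 and 0.16 CPM in Lgr5 positive libraries and 1.53 and 4.91 CPM in Differentiated epithelium. Ccr6 had 36.6, 32.1 and 0 CPM in Foxl1 positive libraries, 0, 0 and 98.3 CPM in Foxl1 negative libraries and at most 0.123 CPM in epithelial libraries. Cxcr5, the follicular B cell receptor of Cxcl13, had 0.155, 10.7 and 2.95 CPM in Foxl1 positive libraries, 0, 0 and 165 CPM in Foxl1 negative libraries, 4.27 and 3.97 CPM in Lgr5 positive libraries and 0.656 and 0.444 CPM in Differentiated epithelium. Foxl1 negative library 3 was the highest of the 10 for all 3 genes, and also for Ccr7, the lymph node homing receptor, at 125 CPM, and for Ccr1, at 86.9 CPM. Ccr7 was at 0, 17.3 and 0 CPM and Ccr1 at 9.23, 0 and 4.42 CPM in the Foxl1 positive libraries. The Ccr7 ligands were nearly absent: Ccl21a had 3 reads, all in Foxl1 positive library 3, and Ccl19 had 1 read, in Foxl1 negative library 3, though Ccl21a has near-identical copies whose reads can be split. The FPKM table also lists a second Ccl19 locus, at no more than 0.498 FPKM in any library, so the counts of Ccl19 are uncertain too.

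Lymphocyte markers were counted in the same sorts, but did not follow these receptors in every library. Summed over 15 T cell and intraepithelial lymphocyte genes, the level was 757, 970 and 41.0 CPM in Foxl1 positive libraries, 0.605, 378 and 794 CPM in Foxl1 negative libraries, 16.9 and 18.7 CPM in Lgr5 positive libraries and 872 and 946 CPM in Differentiated epithelium, with 13, 14, 12, 1, 3, 7, 13, 13, 15 and 15 of the genes counted in the 10 libraries in that order. Cd3e, a subunit of the T cell receptor complex, had 314, 329 and 4.0 CPM in Foxl1 positive libraries and 0, 0 and 98.8 CPM in Foxl1 negative libraries. Cd8a, a coreceptor of cytotoxic T cells, was distributed otherwise, with 0.62, 0.337 and 4.0 CPM in Foxl1 positive libraries and 0, 0 and 170.4 CPM in Foxl1 negative libraries. The Differentiated epithelium libraries had T cell sums near those of Foxl1 positive libraries 1 and 2. In these epithelial libraries Ccr2, Ccr4 and Ccr6 were at no more than 0.123 CPM, and Ccr9 was at 4.92 and 10.2 CPM. Cxcr6 was at 1.53 and 4.91 CPM there, and Cxcr3 at 2.27 and 2.14 CPM. Over 7 B and plasma cell genes the sum was 659, 226 and 432 CPM in Foxl1 positive libraries, 1437, 260 and 13038 CPM in Foxl1 negative libraries and at most 9.34 CPM in an epithelial library. The part of lymphocytes in the receptor levels was not tested.

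**Figure D4:**
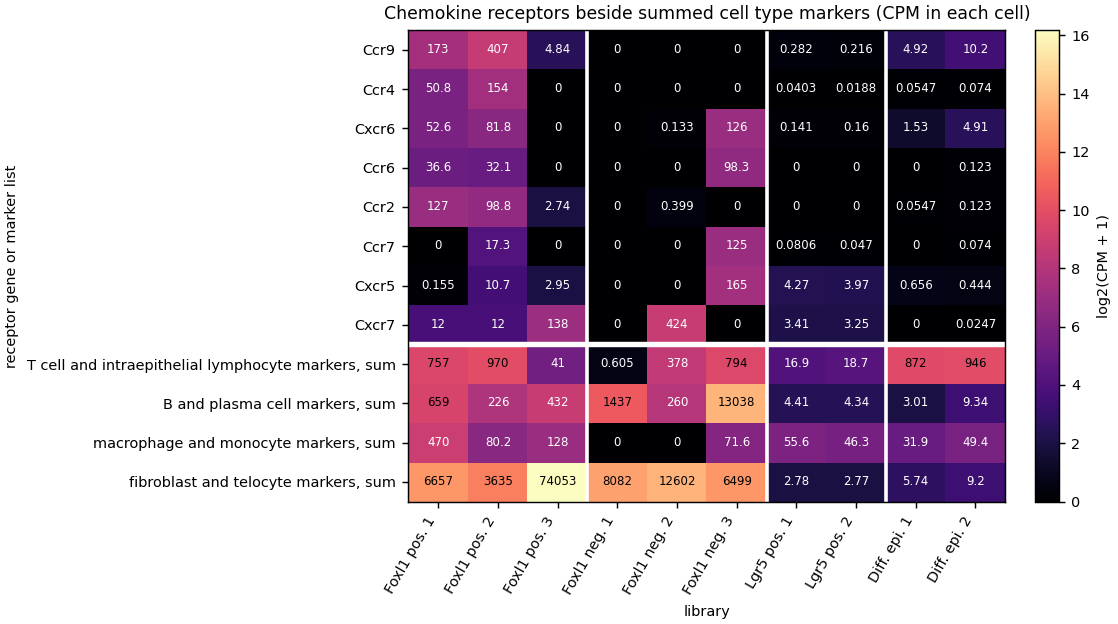
CPM of 8 chemokine receptors (upper rows) and summed CPM of 4 lists of cell type markers (lower rows) in the 10 libraries, printed in each cell and coloured by log2(CPM + 1). Ccr9, Ccr4 and Ccr2 are high in Foxl1 positive libraries 1 and 2, Cxcr5 and Ccr7 in Foxl1 negative library 3, and Cxcr7 in Foxl1 negative library 2 and Foxl1 positive library 3.

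Receptors of the stromal and phagocyte ligands were distributed differently. Cxcr7, an atypical receptor that takes up Cxcl12, had 12, 12 and 138 CPM in Foxl1 positive libraries, 0, 424 and 0 CPM in Foxl1 negative libraries, 3.41 and 3.25 CPM in Lgr5 positive libraries and 0 and 0.0247 CPM in Differentiated epithelium. It rose 2666-fold in Foxl1 positive cells over Differentiated epithelium, where 1 read was counted (exact 95% counting interval 477 to 105415, adjusted p = 0.0230). Cxcr4, the signalling receptor of Cxcl12, had 3.64, 24.9 and 1.05 CPM in Foxl1 positive libraries, 0, 0 and 1.02 CPM in Foxl1 negative libraries, 0.524 and 0.141 CPM in Lgr5 positive libraries and 0.137 and 0.0986 CPM in Differentiated epithelium, and passed no test. Cx3cr1, the receptor of Cx3cl1, had 20.7, 0 and 1.26 CPM in Foxl1 positive libraries and 0 in Foxl1 negative libraries, and Ccr3, the eotaxin receptor, had 3.33, 0 and 11.6 CPM in Foxl1 positive libraries and no count elsewhere. Macrophage and monocyte markers, 11 genes, summed to 470.3, 80.2 and 128 CPM in the Foxl1 positive libraries, highest in library 1 as Cx3cr1 was. A further 7 genes, Ccl1, Ccl12, Ccl17, Ccl22, Ccl26, Ccl27a and Ccr8, had at most 3.25 CPM in any library and passed no test. Ccr10, the Ccl28 receptor, had 0, 0 and 1.47 CPM in Foxl1 positive libraries, 0 in Foxl1 negative libraries and at most 0.222 CPM in epithelial libraries.

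Across the set, the comparison of Foxl1 positive with Foxl1 negative cells tested 23 of the 51 genes; 10 were higher and 0 lower at an adjusted p under 0.05. All 10 are named above with their values: Ccl6, Ccl7, Ccl8, Ccl9, Cxcl2, Cxcl13, Cxcl14, Ccr2, Ccr9 and Cxcr3. Of all 11204 genes tested, 42.2% were higher and 0% lower, so a share of 43.5% among the tested chemokine genes was near the background, and their median log2 fold change of 3.42 was near the 3.47 of all genes. At an unadjusted p under 0.05, 11 were higher and 0 lower, and DESeq2 called 11 higher, with no share over all genes computed for either. Without Foxl1 negative library 3 the count was 18, and without Foxl1 positive library 1 it was 9, with Ccr9 and Ccr2 lost. For these fits, too, no share over all genes was computed, so their counts cannot be set against 42.2%. Ccr2 was also lost without Foxl1 positive library 2, without Foxl1 positive library 3 (with Ccl6), and without Foxl1 negative library 1 (with Ccl7 and Ccl9).

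Between Foxl1 positive and Lgr5 positive cells, 35 genes of the set were tested, and 4 were higher, Ccl11, Cxcl12, Cxcl14 and Ccr2, and 0 lower. Background shares were 4.84% higher and 0.884% lower of 14259 genes. The median log2 fold change was 7.43 in the set and 0.0582 over all genes. Genes such as Ccl7 and Ccl8, with no count in Lgr5 positive libraries, passed the filter on low counts through the Foxl1 positive group alone. Their fitted fold changes are large, so the median describes the tested genes and is no test of the set. All 4 calls were lost on leaving out Foxl1 positive library 1 or 2 or either Lgr5 positive library, and 13 genes were higher without Foxl1 positive library 3. At an unadjusted p under 0.05, 22 were higher and 0 lower, and DESeq2 called 24 higher and 0 lower. No share over all genes was computed for these counts, so they cannot be set against the 4.84% of the main fit.

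Between Foxl1 positive cells and Differentiated epithelium, 37 genes were tested; 8 were higher, namely Ccl7, Ccl8, Ccl11, Cxcl12, Cxcl13, Cxcl14, Ccr2 and Cxcr7, and 3 were lower, Ccl5, Ccl24 and Cx3cl1. Background shares were 10.6% higher and 7.19% lower of 13876 genes, and the median log2 fold change was 4.06 in the set and 0.322 over all genes. Here too, genes such as Ccl7 and Ccl11, with no count in Differentiated epithelium, passed the filter through the Foxl1 positive group alone. The median is thus no test of the set. With library size alone as the scaling, 10 were higher and 2 lower, Ccl5 losing its call. Over all 13876 genes, that scaling gave 2488 higher and 398 lower. On leaving out either Differentiated epithelium library no call remained. Without Foxl1 positive library 1 there were 5 higher and 1 lower, and without library 3 there were 14 higher and 6 lower. No share over all genes was computed for these fits, so their counts cannot be set against the 10.6% and 7.19% of the main fit. Ccl7, Cx3cl1 and Ccr2 lost their calls without Foxl1 positive library 1 and also without library 2. These comparisons share the Foxl1 positive libraries.

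Between the 2 epithelial groups, 17 of 23 tested genes were called. In Lgr5 positive cells 4 were higher and 13 lower than in Differentiated epithelium, against background shares of 34.4% and 31.9% of 14534 genes. The median log2 fold change was -1.64 in the set and 0.121 over all genes. Genes such as Ccl3 and Ccl4, with no count in Lgr5 positive libraries, passed the filter through Differentiated epithelium alone, so this median is no test of the set. The 4 higher genes were Ccl9, with a log2 fold change of 3.53 ± 0.39 (SE, adjusted p = 0.000118), Ccl28, with 2.59 ± 0.39 (SE, adjusted p = 0.000579), Cxcr5, with 2.91 ± 0.53 (SE, adjusted p = 0.00157), and Cxcr7, which was 254-fold higher against 1 read (exact 95% counting interval 45.5 to 10069, adjusted p = 0.000178).

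The genes lower in Lgr5 positive cells included the membrane-anchored ligands, the eotaxin Ccl24 and genes known from T cells. The log2 fold change was -5.47 ± 0.38 for Cx3cl1 (SE, adjusted p = 2.03e-05), -4.62 ± 0.33 for Cxcl16 (SE, adjusted p = 2.29e-05) and -8.09 ± 0.71 for Ccl24 (SE, adjusted p = 4.37e-05). Ccl25, the most abundant ligand, changed less, with a log2 fold change of -1.30 ± 0.30 (SE, adjusted p = 0.00518). For Ccl5 it was -8.21 ± 0.62 (SE, adjusted p = 2.54e-05), for Ccr9 -4.94 ± 0.60 (SE, adjusted p = 0.000191), for Cxcr6 -4.39 ± 0.78 (SE, adjusted p = 0.00135) and for Cxcl11 -3.67 ± 0.49 (SE, adjusted p = 0.000296). Ccl3, Ccl4 and Cxcr3 had no count in Lgr5 positive libraries and were at least 81.1-fold, 206-fold and 115-fold lower. Cxcl10 was also called (adjusted p = 0.0341). The T cell genes moved with them: the marker sum was 16.9 and 18.7 CPM in Lgr5 positive cells and 872 and 946 CPM in Differentiated epithelium, and its part in the fall of Ccl5, Ccl3, Ccl4, Ccr9, Cxcr6 and Cxcr3 was not tested.

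The Differentiated epithelium libraries had composition scaling factors of 0.45986 and 0.50136, and scaling by library size alone shifted the median of all genes by 1.15 on the log2 scale. Under it 8 genes of the set were higher and 10 lower, with Ccl25 and Cxcl10 among those no longer called. Over all 14534 genes tested, 7866 were higher and 2568 lower under the same scaling. Leaving out Lgr5 positive library 2 lost Cxcl10 and Ccl25, and leaving out Differentiated epithelium library 1 lost Cxcl10.

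**Figure D5:**
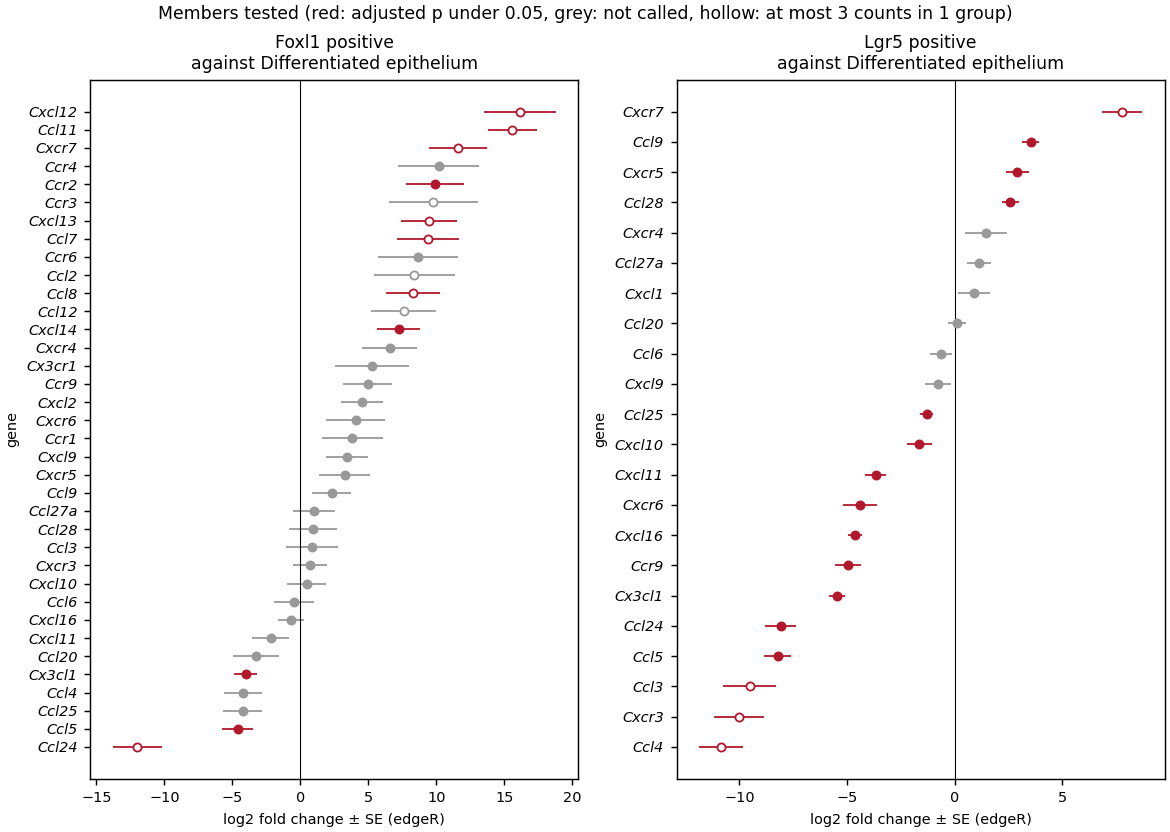
Log2 fold changes ± SE (horizontal axis, edgeR) of 36 of the 37 tested genes in Foxl1 positive cells (left) and of 22 of the 23 in Lgr5 positive cells (right), each against Differentiated epithelium; red is an adjusted p under 0.05, grey is not called, and hollow points have at most 3 counts in 1 group, so that their size depends on the fit. Error bars are shorter between the epithelial groups, where 17 of 23 genes were called.

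Genes around the chemokine pathway were described by 4 lists of other genes. Of 14 genes of chemokine processing and anchoring, 5 were higher and 0 lower in Foxl1 positive than in Lgr5 positive cells, and 3 higher and 0 lower than in Differentiated epithelium, beside shares of 4.84% and 10.6% higher over all genes. Mmp2, a matrix protease that cleaves Cxcl12 and Ccl7, had 302, 302 and 2116 CPM in Foxl1 positive libraries, 0 and 0.0282 CPM in Lgr5 positive libraries and 0.0547 and 0.123 CPM in Differentiated epithelium (adjusted p = 0.0181 and 0.0151). Hspg2, the heparan sulfate proteoglycan perlecan, had log2 fold changes of 4.77 ± 0.87 against Lgr5 positive cells (SE, adjusted p = 0.0339) and 8.26 ± 1.07 against Differentiated epithelium (SE, adjusted p = 0.0141). Tpst1, a sulfotransferase that modifies receptor tyrosines, was higher by 6.21 ± 1.31 and 5.97 ± 1.32 (SE, adjusted p = 0.0471 and 0.0321). Against Foxl1 negative cells 4 of 13 tested were higher and 0 lower, a smaller share than the 42.2% of all genes.

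Of the inducers of chemokine genes, 1 of 27 tested was higher in Foxl1 positive than in Lgr5 positive cells, and 2 of 25 were higher and 2 lower than in Differentiated epithelium. These shares were near or below those of all genes, 4.84% higher against Lgr5 positive cells, and 10.6% higher and 7.19% lower against Differentiated epithelium. Il1r1, the interleukin 1 receptor, had 127, 197 and 143 CPM in Foxl1 positive libraries, 0, 0 and 68.2 CPM in Foxl1 negative libraries, 0 in Lgr5 positive libraries and 0.0547 and 0.123 CPM in Differentiated epithelium. It passed the test against Lgr5 positive cells (adjusted p = 0.0150) and Differentiated epithelium (adjusted p = 0.0121). Tlr4, the endotoxin receptor, was higher by 7.12 ± 1.25 on the log2 scale than in Differentiated epithelium (SE, adjusted p = 0.0211). The interferon pathway genes Ifngr2 and Irf1 had log2 fold changes of -3.48 ± 0.65 and -2.60 ± 0.68 (SE, adjusted p = 0.0230 and 0.0446). Against Foxl1 negative cells 3 of 19 were higher and 0 lower, again under the 42.2% of all genes.

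Chemokine receptor signalling genes had 3 of 26 higher and 0 lower against Lgr5 positive cells, 2 higher and 1 lower of 26 against Differentiated epithelium, and 9 higher and 0 lower of 26 against Foxl1 negative cells. The shares higher over all genes in these comparisons were 4.84%, 10.6% and 42.2%. Gnai1, an inhibitory G protein subunit, had 225, 178 and 154 CPM in Foxl1 positive libraries, 0 in Foxl1 negative libraries, 2.36 and 17.4 CPM in Lgr5 positive libraries and 0.547 and 0.493 CPM in Differentiated epithelium, with a log2 fold change of 8.67 ± 0.87 against Differentiated epithelium (SE, adjusted p = 0.0121). Between Lgr5 positive cells and Differentiated epithelium, 3 of 27 signalling genes were higher and 16 lower, and 3 of 24 inducers were higher and 15 lower, beside 34.4% higher and 31.9% lower over all genes. With library size alone these became 10 higher and 11 lower, and 8 higher and 10 lower, and the called genes Nfkb1 and Rac1 took the other sign. Over all 14534 genes tested, library size alone gave 7866 higher and 2568 lower. Irf7, an interferon regulatory factor, and Tnfrsf1a, a receptor of tumor necrosis factor, had log2 fold changes of -4.96 ± 0.46 (SE, adjusted p = 5.11e-05) and -3.74 ± 0.33 (SE, adjusted p = 4.45e-05), and Tlr2, a receptor of bacterial lipoproteins, was higher by 5.08 ± 0.45 (SE, adjusted p = 4.56e-05).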

How the data were processed

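The authors deposited counts (unnormalized integer read numbers) of 24082 transcripts from 18594 genes, and FPKM values of 29510 transcripts. The submitters' processing notes name CASAVA 1.8.2, edgeR and the mm9 build for the deposited files. Which aligner, counter, annotation and strand setting were used is not given in the sources used here. Dissociation used Dispase II and trypsin before sorting, column purification of RNA and a New England Biolabs library kit, per the labels. By the codes in the labels' descriptions, the 3 Foxl1 negative libraries share 1 run code and the other 7 libraries have a code each, so run and group cannot be told apart.

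The set was taken by symbol from the authors' representative transcript of each gene. The chemokine genes Ccl21b, Ccl21c, Ccl27b, Cxcl17 and Cxcr1 are in the FPKM table alone, at no more than 0.216 FPKM, and were not used. One gene of the set is kept in the counts of genes and is not reported here on its own. Members and gene lists were chosen with earlier results of these data known. Genes were named by known ligand and receptor pairs, by a group mean of at least 20 CPM, or by a call. CPM used TMM factors over all 10 libraries. Each comparison was fitted with its 2 groups alone in edgeR 4.0.16 (R 4.3.3): TMM, filterByExpr, glmQLFit with robust settings and glmQLFTest, 2-sided, with Benjamini-Hochberg adjustment over all genes tested and a threshold of 0.05. Where a group had 0 counts, the fold sets the mean of the other group against 3 counts over the empty group. It is a bound for counting error in the empty group only. The spread between libraries and the sparseness of the Foxl1 negative libraries are not in it. With 1 to 3 counts the fold is a ratio with an exact 95% interval, which covers counting error only. The fits were tested on simulated data. Alternatives used DESeq2 1.42.0, limma 3.58.1 on log2(FPKM + 1) or log2(FPKM + 0.1), other scalings and filters, the transcript with the highest mean count, all 10 libraries in 1 fit, a replicate block, and each library left out. Library size alone and Foxl1 positive library 3 alone were chosen after seeing the data. No 2 replicates agreed within sampling noise (chi-square per degree of freedom at least 148).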

Additional observations from a re-analysis of the deposited data

How the results depend on the processing

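Depth and spread limit these results: a count of 0 allows 1.81 CPM in Foxl1 negative library 1, and Foxl1 positive libraries differ by make-up. The transcript with the highest mean count changed no call, and the RLE scaling added 1 (Ccr9 against Lgr5 positive cells). For genes higher in Foxl1 positive than Foxl1 negative cells (10), log2(FPKM + 1) gave 1, the fit of all 10 libraries 17, Foxl1 positive library 3 alone 0, and leaving out 1 library 9 to 18. Against Lgr5 positive cells (4 higher, 0 lower), DESeq2 gave 24 higher, the fit of all libraries 0 and library 3 alone 19 higher and 4 lower; log2(FPKM + 1) gave 4 lower and log2(FPKM + 0.1) 2 lower; leaving out 1 library gave 0 to 13 higher. Against Differentiated epithelium (8 higher, 3 lower), DESeq2 gave 18 and 5, log2(FPKM + 1) 3 and 6, log2(FPKM + 0.1) 6 lower, the fit of all libraries 0 and 0, library 3 alone 20 and 10, and leaving out 1 library 0 to 14 higher and 0 to 6 lower. For Lgr5 positive cells against Differentiated epithelium (4 higher, 13 lower), log2(FPKM + 1) gave 7 lower, log2(FPKM + 0.1) 6 lower, the fit of all libraries 0 and 0, library size alone 8 higher, and leaving out 1 library 4 to 5 higher and 12 to 18 lower. Calls over all genes were counted only for the main fits, the RLE scaling and library size alone, so the other counts here have no background beside them. The cause was not tested, except that leaving out a library removes samples from the fit. Without a replicate in a group of 2, the lone library is assumed to vary like the other group.

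The main fits did not pair libraries by replicate number. Correlations of same-numbered deviations from the group means were 0.0505, 0.0114 and 0.0618 between Foxl1 positive and Foxl1 negative libraries. For Foxl1 positive libraries they were -0.00401 and 0.0214 against Lgr5 positive, and -0.141 and 0.0784 against Differentiated epithelium. Between the epithelial groups the value was 0.242. It is the same for both numbers by construction, because the deviations of 2 libraries from their mean mirror each other. Whether these libraries were paired is not settled by it. The replicate block gave 0 higher against Foxl1 negative cells, 12 higher against Lgr5 positive cells, 12 higher and 5 lower against Differentiated epithelium, and 4 higher and 13 lower between the epithelial groups.

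Of the 51 single fold changes recomputed, those that turned were of genes not called; among the called pathway genes, Nfkb1 and Rac1 turned in Lgr5 positive cells against Differentiated epithelium with library size alone. Cxcl16 in Foxl1 positive cells against Differentiated epithelium had a log2 fold change of 0.44 with library size alone and 0.54 with library 3 alone. Ccr9 in the same comparison had -0.57 with library 3 alone, and Ccl6 in Lgr5 positive cells against Differentiated epithelium had 0.50 with library size alone. Library size alone moved the median log2 fold change of all genes by -0.822 against Foxl1 negative cells, -0.0816 against Lgr5 positive cells, 1.08 for Foxl1 positive cells and 1.15 for Lgr5 positive cells against Differentiated epithelium.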

Other observations

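Apart from Cxcr7, the atypical receptors that bind chemokines without signalling were not part of the set. Ccrl1, which takes up Ccl25, Ccl19 and Ccl21 proteins, had 4.03, 1.23 and 149.6 CPM in Foxl1 positive libraries 1 to 3, 0 in Foxl1 negative libraries, 5.94 and 14.5 CPM in Lgr5 positive libraries and 49.0 and 32.4 CPM in Differentiated epithelium. It was higher in Foxl1 positive than in Foxl1 negative cells (adjusted p = 0.0373, edgeR) and lower in Lgr5 positive cells than in Differentiated epithelium, with a log2 fold change of -1.99 ± 0.47 (SE, adjusted p = 0.00609). Ccbp2, a scavenger of inflammatory CC chemokines, had 0, 0.337 and 17.9 CPM in Foxl1 positive libraries and at most 0.0493 CPM elsewhere, and Darc, known from endothelium and red cells, had 0, 0 and 4.0 CPM there and at most 0.0806 CPM elsewhere. All 3 were highest in Foxl1 positive library 3, which also held the highest sum of 8 blood endothelium markers, 1304 CPM, against 153 and 226 CPM in Foxl1 positive libraries 1 and 2. The Foxl1 negative libraries, where none of the 3 genes was counted, had sums of 1.21, 736 and 456 CPM. The part of endothelium in these levels was not tested. Of 8 tested genes among the 13 other chemokines and atypical receptors, 2 were higher and 5 lower in Lgr5 positive cells than in Differentiated epithelium, beside 34.4% and 31.9% of all genes. With library size alone 3 were higher and 2 lower, beside 7866 higher and 2568 lower of all 14534 genes tested.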
